A study of Mus musculus with 8 samples.

Results

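The chromatin around 10 genes of the pluripotency network was followed through spermatogonial development in the mouse testis. The genes were Pou5f1, Nanog, Sox2, Klf4, Klf2, Utf1, Dppa3, Prdm14, Esrrb and Tfcp2l1. An ATAC-seq peak was counted for a gene when the deposited list of nearby genes, which reaches 10 kb beyond each gene, held that symbol exactly. By this rule 165 of 328733 peaks belonged to the 10 genes, which are 10 of the 21490 genes assigned to a peak. Merging peaks that overlapped by at least 1 bp across libraries gave 47 regions for these genes, of 87144 regions in all. The rule used gene names and no measured value.

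ATAC-seq relies on a transposase that cuts and tags open DNA, so tags pile up where chromatin is accessible. Germ cells positive for eGFP were sorted from testes of neonatal PIWIL2-eGFP mice, in which a Piwil2 promoter drives the reporter in germ cells as a whole and not in 1 type of spermatogonium. The sample labels describe the strain as derived from C57BL/6 x 129s4/SvJae, while the study's methods name C57BL/6 x SJL. Every mouse, those of the 0 h group included, had been given WIN 18,446, which blocks the synthesis of retinoic acid (RA), for 7 days from 2 dpp (days post partum). The 0 h mice received no RA injection, and the other mice were injected with RA in DMSO at 9 dpp and collected 18, 48 or 120 h later. The study's methods describe no vehicle injection, and mice collected later were older. In comparisons with 0 h, RA, the injection and age thus cannot be told apart. There were 2 libraries at every timepoint, with 1 mouse behind each. By the study's staging these timepoints hold undifferentiated A, A1 and A2, A3, and B spermatogonia.

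POU5F1 (also called OCT4), SOX2 and NANOG are transcription factors that bind regulatory DNA together and hold embryonic stem cells in the pluripotent state. KLF2, KLF4, ESRRB, TFCP2L1 and PRDM14 support the naive form of that state, and UTF1 and DPPA3 are chromatin-associated proteins that mark pluripotent cells and early germ cells. Undifferentiated spermatogonia are known to retain POU5F1 and UTF1, whereas NANOG and SOX2 protein are generally not found in postnatal spermatogonia. Accessibility of a region is not expression of its gene.

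Regions of the 10 genes whose peaks came or went between timepoints are shown first, with 1 that did not. Each is the 300 bases of mm10 (GRCm38, sequence from RefSeq) centred on the highest summit of a region, on the plus strand. Capitals mark an octamer, the POU-factor motif ATGCAAAT or its reverse complement ATTTGCAT, or a nuclear receptor half-site, AGGTCA. The first pair of windows lies upstream of Dppa3 (chr6:122624555-122624854) and of Utf1 (chr7:139942731-139943030). They are shown because both hold an octamer and neither had a peak at 18 or 48 h.
Dppa3 -1720 bp: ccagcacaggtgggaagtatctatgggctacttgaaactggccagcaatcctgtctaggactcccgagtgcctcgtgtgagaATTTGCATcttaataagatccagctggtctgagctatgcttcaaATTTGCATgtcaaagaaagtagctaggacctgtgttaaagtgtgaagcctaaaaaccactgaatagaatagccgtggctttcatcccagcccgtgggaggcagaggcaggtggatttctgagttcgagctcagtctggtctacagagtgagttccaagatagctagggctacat
Utf1 -976 bp: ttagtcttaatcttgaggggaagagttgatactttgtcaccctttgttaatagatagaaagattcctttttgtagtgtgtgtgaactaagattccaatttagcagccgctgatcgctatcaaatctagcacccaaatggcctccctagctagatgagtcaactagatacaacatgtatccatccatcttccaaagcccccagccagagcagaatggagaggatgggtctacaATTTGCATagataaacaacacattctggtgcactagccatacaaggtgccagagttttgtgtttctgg

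The next windows lie upstream of Nanog (chr6:122702379-122702678) and of Pou5f1 (chr17:35498923-35499222). They are the regions closest upstream of these genes that were called at 0 h, and both were lost or reduced to single libraries later.
Nanog -5040 bp: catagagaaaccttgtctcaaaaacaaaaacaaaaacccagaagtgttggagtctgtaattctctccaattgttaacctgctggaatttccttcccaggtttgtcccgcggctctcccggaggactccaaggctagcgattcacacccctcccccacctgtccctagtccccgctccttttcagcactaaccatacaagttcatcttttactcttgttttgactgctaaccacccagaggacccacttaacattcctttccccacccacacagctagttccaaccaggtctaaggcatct
Pou5f1 -6960 bp: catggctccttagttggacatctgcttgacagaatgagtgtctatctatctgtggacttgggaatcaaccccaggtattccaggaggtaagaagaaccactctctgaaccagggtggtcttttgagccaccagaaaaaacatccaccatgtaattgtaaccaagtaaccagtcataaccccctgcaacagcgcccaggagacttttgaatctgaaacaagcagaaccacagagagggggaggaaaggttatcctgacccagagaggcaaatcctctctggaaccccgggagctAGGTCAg

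A window in an intron of Prdm14 (chr1:13124779-13125078) is shown because its peak was called at 120 h alone. A window in an intron of Esrrb (chr12:86429291-86429590) is shown as the only region of the 10 genes that lay outside a CpG island and had a peak in all 8 libraries. The last sequence is the 236 bases just before the annotated start of Pou5f1 (chr17:35505782-35506017, plus strand), beside the start peak that was found at 0 h alone, and its capitals mark a GC box, GGGCGG, and a half-site.
Prdm14 +2235 bp: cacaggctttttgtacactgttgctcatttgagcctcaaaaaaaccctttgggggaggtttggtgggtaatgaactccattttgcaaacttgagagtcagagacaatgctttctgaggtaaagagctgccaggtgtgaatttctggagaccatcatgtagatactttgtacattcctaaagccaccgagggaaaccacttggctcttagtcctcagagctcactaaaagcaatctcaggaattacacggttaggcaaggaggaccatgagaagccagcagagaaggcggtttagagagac
Esrrb +68323 bp: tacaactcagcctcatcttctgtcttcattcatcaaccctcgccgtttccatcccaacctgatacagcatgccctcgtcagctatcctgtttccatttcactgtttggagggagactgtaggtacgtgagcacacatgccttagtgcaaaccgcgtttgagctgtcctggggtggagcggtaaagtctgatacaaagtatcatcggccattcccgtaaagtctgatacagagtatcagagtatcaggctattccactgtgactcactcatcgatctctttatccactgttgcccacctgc
Pou5f1 upstream: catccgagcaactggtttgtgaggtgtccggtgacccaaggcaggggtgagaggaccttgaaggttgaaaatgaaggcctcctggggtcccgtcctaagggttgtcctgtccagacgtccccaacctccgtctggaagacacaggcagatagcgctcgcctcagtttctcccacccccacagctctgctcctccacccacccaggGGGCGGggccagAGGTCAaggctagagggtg

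All 6 motifs searched, on both strands, were ATGCAAAT, the SOX core ACAAT, the GC box GGGCGG, the KLF core GGGTG, the ESRRB motif TCAAGGTCA and the half-site AGGTCA that lies within it. The octamer was in 3 of the 47 windows of the 10 genes, those of Dppa3 and Utf1 above and an intronic window of Tfcp2l1 7543 bp from its start, and in 1.47% of the windows of all regions. The SOX core was in 16 windows, against 36.4% of all windows. The GC box was in 13 windows, against 23.5% of all, and the KLF core in 31, against 56.3%. The half-site was in 7, against 15.7%, and the ESRRB motif was in no window of the 10 genes and in 0.609% of all windows. RefSeq promoters were found for 8 of the 10 genes, in 11 entries. In the 250 bases before the start a GC box lay in 5 of the 11, for Sox2, Klf4, Utf1, Klf2 and 1 of the entries of Pou5f1, against 32.7% of all RefSeq promoters. These matches describe letters and not bound sites.

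Every one of the 10 genes had a peak in both libraries at 0 h. In 7 of them both libraries had a peak at all 4 timepoints, against 72.8% of all genes called at 1 timepoint or more. This count, as over all genes, did not require the same region at each timepoint. After 0 h Pou5f1 was called only through a region at the starts of its neighbours Tcf19 and Cchcr1. At 18 h Utf1 was called only through a region 3056 bp upstream, in the Kndc1 gene, with 59 and 54 tags. At 120 h it was called only through a region 6576 bp downstream, at an annotated start of Gm16201, with 62 and 44 tags. Nanog was called at 0 h alone. Dppa3 and Prdm14 were called at 0 h and again at 120 h, with neither called at 18 or 48 h. These 3 genes were thus called at 0 h and at neither 18 nor 48 h, which held for 15.6% of all genes. Within 1000 bp of the gene start, peaks in both libraries were found for 6 of the 10 genes at 0 h (68.9% of all genes with a peak), 4 at 18 h (51.7%), 5 at 48 h (52.6%) and 5 at 120 h (53.7%). Nanog, Prdm14 and Esrrb had no such peak at any timepoint.

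The number of peaks was highest at 0 h for most of the genes. The 10 genes together had 39 and 35 peaks in the 0 h libraries (replicates 1 and 2), then 14 and 14 (18 h), 13 and 14 (48 h) and 24 and 12 (120 h). Libraries as a whole had fewer peaks after 0 h, with 72215 and 69089 at 0 h and between 24643 and 39551 later, and the 10 genes held between 0.0407% and 0.0607% of the peaks of a library throughout. The lowest summit value was 24 or 25 in every library, so an absent peak is a signal under the calling limit and not a signal of 0.

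Pou5f1, the central factor of the network, had 3 peaks in both 0 h libraries, 2 and 1 at 18 h and 1 in each later library. Nanog had 3 and 3 peaks at 0 h, then 0 and 1 (18 h), 0 and 1 (48 h) and 1 and 0 (120 h). Both 0 h libraries of these genes were above every later library.

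Utf1 had 5 and 5 peaks at 0 h, then 2 and 2 (18 h), 2 and 1 (48 h) and 3 and 1 (120 h). In replicate 1 at 0 h 2 of the Utf1 peaks lay in the same merged region. Dppa3 had 5 and 3 peaks at 0 h, none in any 18 or 48 h library, and 1 in each 120 h library. Prdm14, a PR-domain regulator needed in primordial germ cells, had 4 and 3 at 0 h, 1 and 0 at 18 h, none at 48 h and 2 and 1 at 120 h. These 3 genes also had more peaks in each 0 h library than in any later one, and so had Klf4, with 3 and 3 at 0 h and 1 or 2 in every later library.

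The other 4 genes overlapped between 0 h and later libraries. Sox2 had 4 and 6 peaks at 0 h and 2 to 4 later, and in replicate 1 at 18 h and at 48 h 2 of these peaks lay in the same merged region. Esrrb, an orphan nuclear receptor, had the most, with 9 and 7 at 0 h, 3 to 4 at 18 and 48 h, and 8 and 3 at 120 h. Klf2 had 1 peak in all 8 libraries, and Tfcp2l1 had 1 or 2.

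**Figure D1:**
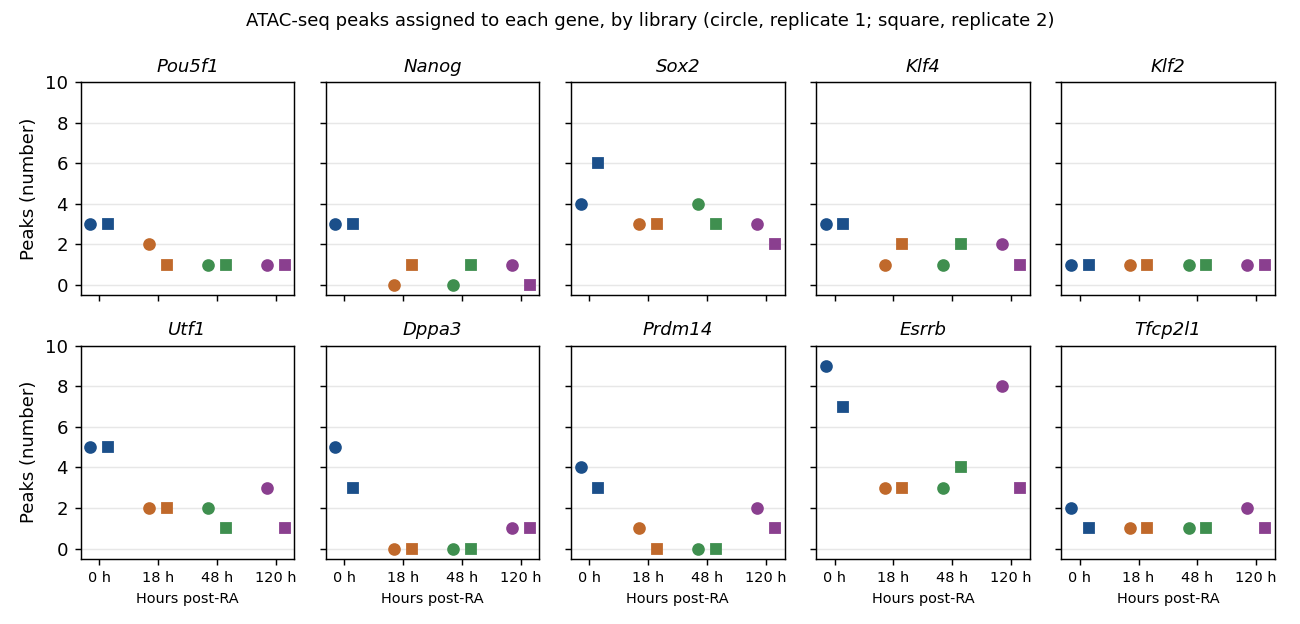
Number of ATAC-seq peaks assigned to each gene (y axis) at each timepoint in hours post-RA (x axis), with 1 point per library (circle, replicate 1; square, replicate 2). Both 0 h libraries lie above all 6 later libraries for Pou5f1, Nanog, Klf4, Utf1, Dppa3 and Prdm14, while Klf2 has 1 peak throughout.

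In total 6 of 10 genes had both 0 h libraries above all 6 later ones, against 36.9% of all genes with a peak. For each of these 6 genes the exact permutation test of 0 h against later libraries gave an unadjusted p = 0.0714 (two-sided, smaller tail doubled). That is the smallest value that the 28 possible arrangements of 2 among 8 libraries allow. After Benjamini-Hochberg adjustment over the 10 genes, the exact test gave 0.119 for each of the 6. The largest mean difference among them was that of Dppa3, at 4.0 ± 1.41 peaks at 0 h (SD, n = 2) and 0.333 ± 0.516 later (n = 6). For Sox2 and Esrrb the exact test gave an unadjusted p = 0.143 and an adjusted p = 0.179. When the same number of peaks, the highest 24643, was taken from every library, none of the genes kept this separation, and 2.53% of all genes showed it. Dppa3 then still had 1 peak in each 0 h and each 120 h library and none at 18 or 48 h, Prdm14 had 2 and 1 at 0 h, 1 and 0 at 18 h, none at 48 h and 1 in each library at 120 h, and all peaks of Nanog were below that limit. When the count was limited to peaks in the gene body or up to 1000 bp from the start, the separation was seen in 1 of the 10 genes, Pou5f1, against 26.2% of all genes.

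Of the 47 regions, 33 had a peak in both replicates of some timepoint (70.2%, against 70.4% of all regions). Of these 33, 31 had it at 0 h (93.9%, against 96.3%). Regions called at 0 h alone were 17 of 33 (51.5%), against 49.8% over all regions. Regions called at all 4 timepoints were 8 of 33 (24.2%), against 25.3%. Regions called later and not at 0 h were 2 of 33 (6.06%), against 3.66%. The shares called at 0 h alone and at all 4 timepoints were near those of the whole genome. The last count was 1 when replicate 2 at 0 h was left out and 6 when replicate 2 at 120 h was left out.

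**Figure D2:**
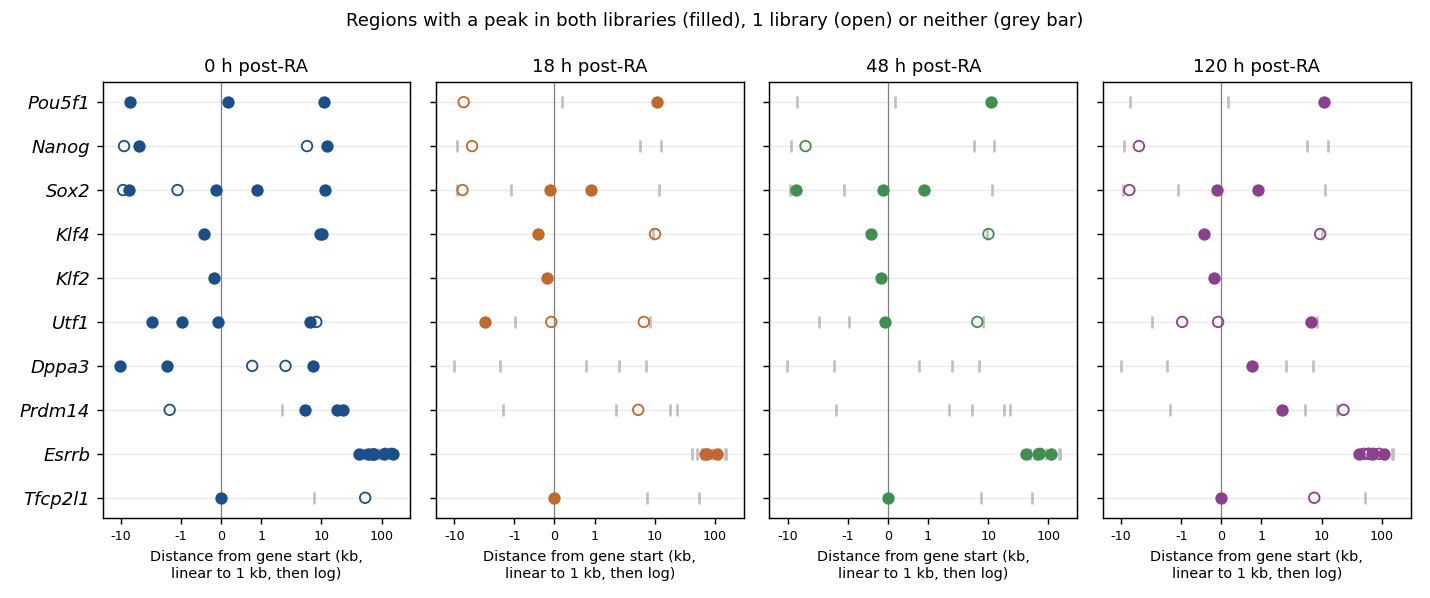
Regions of each gene (rows) by the distance of the summit from the gene start in kb (x axis, linear to 1 kb and logarithmic beyond), with 1 panel per timepoint. Filled circles are regions with a peak in both libraries, open circles in 1 library, and grey bars regions with a peak at another timepoint only. Of the 31 regions filled at 0 h, 10 were filled at 18 h, and the 2 regions filled later but not at 0 h belong to Dppa3 and Prdm14.

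The regions were also counted by whether they held a CpG island, a stretch rich in CG dinucleotides that often lies at a gene start. Of 11 regions with a CpG island called at 0 h, 7 were also called at 18 h (63.6%, against 70.5% over all such regions). Of 20 without a CpG island, 3 were also called at 18 h (15.0%, against 30.3%). Over both kinds, 10 of 31 regions were also called at 18 h, against 39.9% of all regions called at 0 h. Of the 8 regions called at all 4 timepoints, 7 held a CpG island (87.5%, against 58.6% of all regions called at all 4), and the exception was the Esrrb intron at +68323 bp. In 9 of the 31 there was no peak in any later library (29.0%, against 31.6% of all regions called at 0 h). None of the 9 had a CpG island, and 94.9% of all such regions had none.

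Height at 0 h moved with this split. The mean summit value of the 2 libraries at 0 h lay between 111 and 472 tags (median 235) in the 10 regions also called at 18 h. It lay between 44 and 142 tags (median 73.5) in the 21 regions that were not, so the ranges overlapped only narrowly. Within CpG islands the medians were 284 tags in the 7 that were also called and 77.5 in the 4 that were not. Outside them they were 144 tags in 3 regions and 73.5 in 17. The part of height and of the CpG island in the split was not tested.

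**Figure D3:**
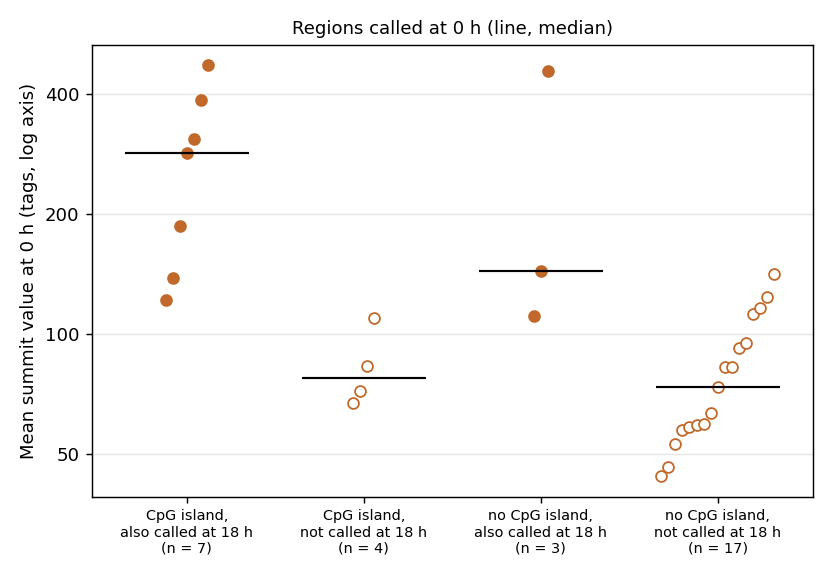
Mean summit value of the 2 libraries at 0 h in tags (y axis, log axis) for the 31 regions called at 0 h, grouped by CpG island and by whether both 18 h libraries had a peak, with 1 point per region and a line at the median. The 10 regions also called at 18 h lie at 111 tags or above and the 21 others at 142 tags or below.

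Pou5f1 had 3 regions, each with its own course. The region over its start (chr17:35506017-35506615, summit in coding sequence 176 bp from the start) had summit values of 47 and 41 tags at 0 h and no peak in any later library. The region 6960 bp upstream (chr17:35498873-35499329), whose sequence is given above, had 119 and 46 tags at 0 h, 35 in replicate 1 at 18 h and no other peak. The third region, 10928 bp downstream of the Pou5f1 start (chr17:35516712-35517378), had 418 and 526 tags at 0 h, then 191 and 287 (18 h), 172 and 166 (48 h) and 552 and 333 (120 h). That region is a CpG island that holds the annotated starts of Tcf19 and Cchcr1, with its summit 137 bp from the start of Tcf19. The only peak counted for Pou5f1 at 48 and 120 h therefore lay at the starts of its neighbours, and at Pou5f1 itself a peak was called at 0 h alone.

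Nanog had no peak within 1000 bp of its start in any library. Its region 5040 bp upstream (chr6:122702134-122702988) had 57 and 49 tags at 0 h, 37 in replicate 2 at 18 h, 32 in replicate 2 at 48 h, 31 in replicate 1 at 120 h and no peak in the other 3 libraries. A region 12592 bp downstream of the start had its only peaks at 0 h, at 52 and 66 tags. The other 2 regions, 1 of them in Nanog coding sequence, had a peak in a single 0 h library. All Nanog values were low, with 66 tags as the highest.

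Sox2 lies inside an intron of the noncoding gene Sox2ot, and its 2 regions nearest the start, both CpG islands, had a peak in all 8 libraries. The region 117 bp upstream (chr3:34649260-34650103) had 162 and 212 tags at 0 h, then 52 and 80 (18 h), 56 and 63 (48 h) and 93 and 59 (120 h). The region 907 bp downstream, in coding sequence (chr3:34650677-34651316), had 107 and 136 at 0 h, then 50 and 52 (18 h), 47 and 72 (48 h) and 103 and 69 (120 h). In both regions each 0 h library was above every later library. The other 4 Sox2 regions lay 1141 to 11563 bp from the start and reached 100 tags at most, and of these only the island 7269 bp upstream had peaks later, at 38 to 55 tags in 4 libraries.

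The Krüppel-like factor genes Klf4 and Klf2 kept an accessible start. The Klf4 start region (chr4:55532166-55533524) had 235 and 380 tags at 0 h, then 147 and 218 (18 h), 156 and 128 (48 h) and 259 and 183 (120 h). The Klf2 start region (chr8:72318553-72319768), its only region, had 212 and 355 tags at 0 h, then 118 and 166 (18 h), 127 and 159 (48 h) and 288 and 192 (120 h). In both genes the 0 h libraries were above all 18 and 48 h libraries, and replicate 1 at 120 h was above replicate 1 at 0 h. Klf4 also had a pair of regions 9467 and 10091 bp downstream of its start with 59 to 106 tags at 0 h and 37 to 48 tags in single libraries later.

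The Utf1 region 976 bp upstream of the start (chr7:139942606-139943084) had 123 and 101 tags at 0 h, no peak at 18 or 48 h and 73 tags in replicate 1 at 120 h. This is the octamer window shown above, and it is not a CpG island. The region over the Utf1 start (chr7:139943634-139944608), a CpG island, had 95 and 124 tags at 0 h, 71 in replicate 2 at 18 h, 51 and 57 at 48 h and 75 in replicate 1 at 120 h. The start was thus called in both libraries at 0 and 48 h. The region 3056 bp upstream, in the Kndc1 gene, had 93 and 129 tags at 0 h and 59 and 54 at 18 h, with no peak after that. These 3 regions overlapped in height at 0 h, and which was highest differed between the 2 libraries.

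Dppa3, also called Stella, had its highest region at 0 h 1720 bp upstream (chr6:122624432-122624963), with 129 and 118 tags at 0 h and no peak in the 6 libraries after RA. Its window holds 2 octamers. An intronic region 776 bp from the start (chr6:122627037-122627405) had 70 tags in replicate 1 at 0 h, no peak at 18 or 48 h, and 96 and 45 tags at 120 h. At 120 h both libraries thus had the intronic peak and neither had the upstream one. Repeats masked by RefSeq made up 64.0% of the intronic window, against a median of 7.67% over all regions.

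In Prdm14 the intronic region 5307 bp from the start (chr1:13121658-13122040) had 148 and 135 tags at 0 h, 61 in replicate 1 at 18 h and no other peak. The region 23099 bp downstream of the start (chr1:13103806-13104332), outside any gene, had 84 and 106 tags at 0 h, 35 in replicate 1 at 120 h and no other peak. Another intronic region 2235 bp from the start (chr1:13124544-13125150) had no peak in any of the 6 libraries at 0, 18 and 48 h, and 116 and 91 tags at 120 h. These were the highest values of any Prdm14 region at 120 h. No repeat was masked in that window.

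Esrrb, with 12 regions spread over its length, had no peak at its annotated gene start. Its highest region was the intronic one 68323 bp from that start (chr12:86429188-86429863), with 450 and 465 tags at 0 h, then 147 and 201 (18 h), 107 and 168 (48 h) and 386 and 209 (120 h). The CpG island at an inner annotated start of Esrrb, 108963 bp from the gene start (chr12:86469901-86470556), had 102 and 174 at 0 h, then 50 and 87 (18 h), 77 and 66 (48 h) and 141 and 87 (120 h). Another CpG island at an inner annotated start, 60611 bp from the gene start (chr12:86421502-86422099), had 56 and 78 tags at 0 h, no peak at 18 or 48 h and 56 in replicate 1 at 120 h, so it was called at 0 h alone. In the intronic region both 0 h libraries were above all later ones, whereas in the first of these CpG islands the groups overlapped. Replicate 1 at 120 h had 8 Esrrb peaks and replicate 2 had 3, so the 2 libraries at 120 h differed.

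Tfcp2l1 had a CpG island peak at its start in every library (chr1:118627647-118628582). It measured 312 and 461 tags at 0 h, then 113 and 179 (18 h), 151 and 174 (48 h) and 194 and 165 (120 h). Both 0 h libraries were above all later libraries. The other 2 Tfcp2l1 regions had a peak in 1 library each, at 41 and 50 tags.

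**Figure D4:**
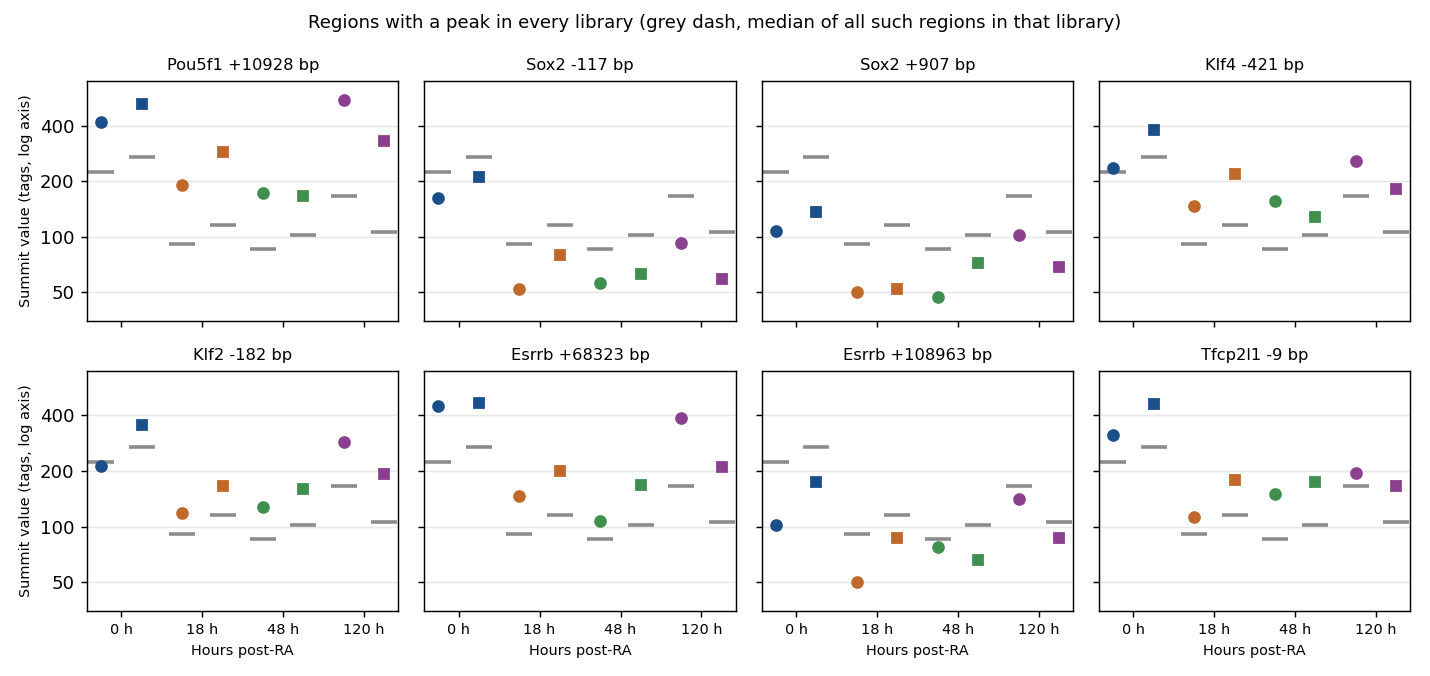
Summit value in tags (y axis, log axis) of the 8 regions with a peak in every library, by timepoint in hours post-RA (x axis), with 1 point per library (circle, replicate 1; square, replicate 2), named by gene and distance from its start. Grey dashes give the median of all 15536 such regions in the same library, which fell from 224 and 270 tags at 0 h to 86 and 102 at 48 h.

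Heights could be tested in the 8 regions of the 10 genes with a peak in all libraries, together with 15536 such regions of the genome (limma on log2 summit values, Benjamini-Hochberg adjustment over all of them). At 18 h, 7 of the 8 were called lower than at 0 h, against 92.3% of all, and the median change was -1.13 on the log2 scale, against -1.23. The exception was Klf4, at -0.74 ± 0.37 (SE, n = 2 and 2, adjusted p = 0.0504 by limma). At 48 h all 8 were called lower than at 0 h, against 93.3% of all, with medians of -1.15 and -1.36. The Esrrb intronic region had the largest difference and fell by 1.77 ± 0.37 on the log2 scale (adjusted p = 1.47e-05 by limma). All 8 regions had the same SE, so this p does not measure the spread between mice at that region. Between 18 and 48 h limma called none of the 8, against 0.00644% of all regions. None of the 8 had an unadjusted p under 0.05, against 255 lower and 14 higher of all 15536. Falls were smaller without replicate 2 at 0 h, in the 8 regions and over all regions. Medians of the 8 were then -0.95 at 18 h, against -1.09 of all, and -0.91 at 48 h, against -1.22. Klf4 was then at -0.39 at 18 h. Without replicate 1 at 18 h the median of the 8 at 18 h was -0.90, against -1.04 of all.

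At 120 h, 2 of the 8 were called lower than at 0 h, against 44.8% of all, and all 8 differences were negative. They were the Sox2 region at -117 bp, which fell by 1.32 ± 0.37 on the log2 scale (adjusted p = 0.00164 by limma), and the Tfcp2l1 start, which fell by 1.08 ± 0.37 (adjusted p = 0.0106). Neither was called when replicate 2 at 0 h was left out. Compared with 48 h, 2 regions were called higher at 120 h, against 23.7% of all, namely the region shared by Pou5f1, Tcf19 and Cchcr1, by 1.34 ± 0.37 (adjusted p = 0.00878 by limma), and the Esrrb intronic region, by 1.08 ± 0.37 (adjusted p = 0.025). Neither of these was called when replicate 1 or 2 at 48 h, or replicate 1 at 120 h, was left out. On the deposited scale the SE was the same for all 8 regions in every comparison. Whole libraries moved together, with medians of 166 and 106 tags in replicates 1 and 2 at 120 h. The regions are thus not independent measures of the shared spread. The p-values on this scale do not measure the spread between mice at each region.

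**Figure D5:**
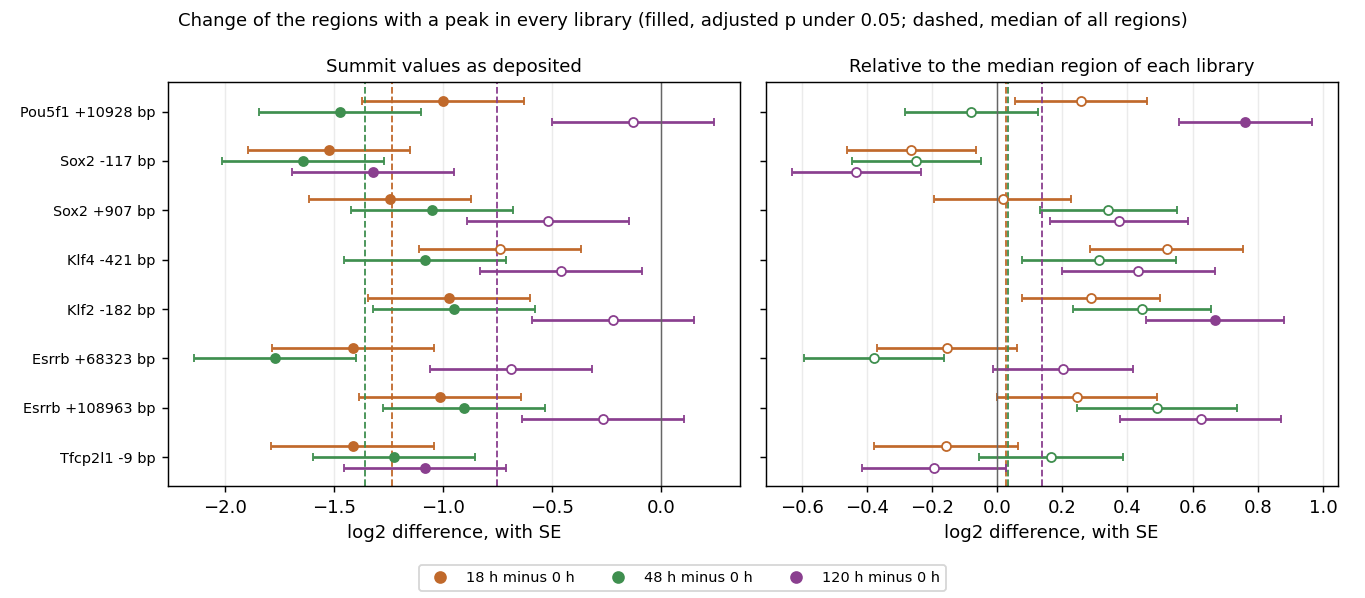
Difference in log2 summit value from 0 h (x axis) with its SE for the 8 regions with a peak in every library (rows), for summit values as deposited (left) and after centring each library on its median region (right). Filled points have an adjusted p under 0.05 and dashed lines give the median of all 15536 regions. At 18 and 48 h the regions lie around the dashed lines on the left and no point is filled on the right.

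The same comparison was made after each library was centred on its median region, which asks whether a region changed more or less than the typical one. On this relative scale limma called none of the 8 regions against 0 h at 18 h (1.47% of all) or at 48 h (4.77%). At an unadjusted p under 0.05 there were 1 of the 8 at 18 h (Klf4) and 0 at 48 h. Over all 15536 regions, 776 lower and 1289 higher had such a p at 18 h, and 1260 lower and 1718 higher at 48 h. Changes of the 8 lay between -0.26 and 0.52 at 18 h and between -0.38 and 0.49 at 48 h.

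At 120 h, 2 of the 8 regions were higher than at 0 h on the relative scale, against 23.0% of all regions called higher and 38.7% in either direction, with the median of all regions at 0.14. They were the region shared by Pou5f1, Tcf19 and Cchcr1, at 0.76 ± 0.20 (adjusted p = 0.0115 by limma), and the Klf2 start, at 0.67 ± 0.21 (adjusted p = 0.025). Neither was called when replicate 1 at 0 h was left out, at 0.73 and 0.43 (adjusted p = 0.0573 and 0.219 by limma), and the Klf2 start was also not called without either 120 h library. With quantile normalization neither was called, at 0.33 and 0.47 (adjusted p = 0.257 and 0.129 by limma). With only the timepoints compared in the fit, the Klf2 start was not called (adjusted p = 0.0521 by limma). On the deposited scale the same regions were lower at 120 h than at 0 h, by 0.13 and 0.22, and not called. Compared with 48 h, the first of these regions alone was higher on the relative scale, at 0.84 ± 0.20 (adjusted p = 0.0235 by limma), against 16.9% of all in either direction, and it was not called with quantile normalization or when any 1 of the 4 libraries compared was left out.

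A list of 38 other genes of the network was read in the same way. Of these, 37 had a peak (Zscan4c had none), 23 were called at all 4 timepoints (72.8% of all genes called at 1 or more) and 6 at 0 h alone (12.9%). The 6 were Nr0b1, Dppa2, Dppa4, Nanos3, Gdf3 and Fgf4. A region called at 0 h alone, 10200 bp upstream of the Dppa3 start, was assigned to both Gdf3 and Dppa3 and so counted in both lists. Among the 10 germline and early embryo genes of this list, such as Dppa2 and Dppa4, which neighbour each other and act with chromatin, 3 were called at all 4 timepoints and 4 at 0 h alone. Among the 15 core partners and regulators, such as Sall4 and Tfap2c, 11 were called at all 4 and 1 at 0 h alone. In 18 of the 37 both 0 h libraries were above all later ones in number of peaks, against 36.9% of all genes with a peak, and in 1, Nanos3, when equal numbers of peaks were taken.

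Peaks within 1000 bp of the start in both libraries were found for 32 of the 37 genes at 0 h (68.9% of all genes with a peak), then 19 (18 h, 51.7%), 15 (48 h, 52.6%) and 21 (120 h, 53.7%). In height, 27 regions of these genes could be tested. Against 0 h on the deposited scale, all 27 were called lower at 18 h (92.3% of all regions), all 27 at 48 h (93.3%) and 12 at 120 h (44.8%). On the relative scale none was called at 18 or 48 h, and 5 were called higher at 120 h, against 23.0% of all. These were a pair of regions of Lin28a, an RNA-binding regulator of let-7, and regions of Sall1, Sox15 and Zfp281, with 1.01 ± 0.22 for Sox15 (adjusted p = 0.00397 by limma) as the largest.

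Markers of the sorted and other testis cells were read at the gene starts. Of all genes with a peak, 68.9% had a start peak in both libraries at 0 h. That share was 51.7% at 18 h, 52.6% at 48 h and 53.7% at 120 h. Of 6 germ cell markers, among them Ddx4, Dazl and Dppa3, 5 had a start peak in both libraries at 0, 18 and 48 h and 6 at 120 h, when Dppa3 was added. Of 8 markers of undifferentiated spermatogonia, 6 had one at 0 h, then 3 (18 h), 3 (48 h) and 5 (120 h), and of 4 markers of differentiating spermatogonia 4, 3, 3 and 4. Of 6 Sertoli cell markers, 5 had one at 0 h, then 2 (18 h), 3 (48 h) and 2 (120 h), with Fshr at none. Of 3 peritubular myoid markers 3, 2, 2 and 1 had one, and of 5 Leydig cell markers, Star and Cyp17a1 included, none had one at any timepoint. Of 3 endothelial markers 1, Kdr, had one at each timepoint, and of 4 macrophage markers 1, Cd68, had one at 0 h and none later. The part of other cells in the 0 h regions of the 10 genes was not tested.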

How the data were processed

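ATAC-seq peaks of 8 libraries were read as deposited. The authors aligned reads to mm10 with BWA 0.7.12, removed duplicates and mitochondrial tags, thinned all libraries to an equal tag number and called peaks in each library with MACS2 2.1.0 without a control. The deposited signal is the tag coverage at the summit, and the mean coverage over the peak. Genes and CpG islands were those the authors assigned to each peak. Reads behind single peaks were not analysed here, and their depth is unknown.

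Overlapping peaks (1 bp or more) were merged, and a region or gene was called at a timepoint when both libraries had a peak. Heights were log2 of the highest summit value, as deposited and centred on each library's median. They were fitted in R 4.3.3 with limma 3.58.1 over 15536 regions (a peak in every library). The fit had 4 groups, no block and 4 residual degrees of freedom per region, and limma shares the spread between regions. Calls used an adjusted p under 0.05. The fit was tested on simulated heights with known changes at 18 h and without shifts of whole libraries. It called 40.0% of the regions changed by -1 on the log2 scale and 94.0% of those changed by -2. Peak numbers were compared with exact permutation tests in Python 3.11.15 (numpy 2.4.6, pandas 2.3.3). Annotation was GENCODE vM21 basic. Replicates correlated at 0.915 to 0.939 over log2 heights.

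Regions named by rule were those with a peak in every library, those within 1000 bp of a start, the highest at 0 h of each gene, and those called later and not at 0 h. Others were named outside these rules, among them Pou5f1 -6960, Nanog -5040, Utf1 -3056, Prdm14 +23099 and Esrrb +60611. The Prdm14 region at +18171 bp, with 112 and 72 tags at 0 h and no later peak, was not described. The genes, lists and rules were chosen with earlier results of these data known. Alternatives were a summit value of at least 50, equal numbers of peaks, peaks in or near the gene, stricter overlap, either replicate, mean coverage, a replicate block, an intensity trend, fewer samples, quantile normalization and each library left out in turn. Browser tracks were not used.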

Additional observations from a re-analysis of the deposited data

How the results depend on the processing

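With equal numbers of the highest peaks per library, 0 of the 10 genes and 1 of the 38 related genes (Nanos3) had 0 h above all later libraries. That held for 2.53% of all genes. With all peaks the counts were 6 and 18, against 36.9% of all genes. Regions called at 0 h only were then 2 (12.5% of those called, against 9.53% of all). With all peaks they were 17 (51.5%, against 49.8%). Regions called later but not at 0 h were 5, and 2 with all peaks. The Sox2 peak difference turned to -0.333. With peaks in the gene or within 1000 bp of its start, 1 gene, Pou5f1, showed the separation, against 26.2% of all genes, and Sox2 was again at -0.333. Counting a peak in either replicate gave 13 of 47 regions at all 4 timepoints (8 when both were needed), against 25262 of all 87144. It gave 5 later but not at 0 h, and summit values of at least 50 gave 1 of the latter. Equal numbers and the near-gene limit keep fewer peaks by construction. The cause of the other shifts was not tested.

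Without the centring the fit is the one of deposited heights given above, so it is not a separate check. The relative changes that were positive were negative in that fit. At 18 h they were -1.0 for the region at Tcf19 counted for Pou5f1, -1.24 for Sox2 +907, -0.74 for Klf4, -0.97 for Klf2 and -1.01 for Esrrb +108963. At 48 h they were -1.05 for Sox2 +907, -1.08 for Klf4, -0.95 for Klf2, -0.90 for Esrrb +108963 and -1.23 for Tfcp2l1. At 120 h they were -0.13 for the Tcf19 region, -0.52 for Sox2 +907, -0.46 for Klf4, -0.22 for Klf2, -0.69 for Esrrb +68323 and -0.27 for Esrrb +108963. Regions called were then 7 at 18 h, 8 at 48 h and 2 at 120 h against 48 h. Quantile normalization gave 0 called on the relative scale at 120 h against 0 h and 0 against 48 h, with -0.10 for Sox2 +907 at 18 h and -0.13 for Esrrb +68323 at 120 h. Mean coverage gave -0.11 for Sox2 +907 at 18 h. With only the timepoints compared, 1 relative region was called at 120 h against 0 h, and 1 in deposited height against 48 h. An intensity trend gave 2 relative regions at 120 h against 48 h.

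Leaving out each library in turn gave 4 to 8 regions lower at 18 h, 3 to 8 at 48 h, 0 to 3 at 120 h and 0 to 5 higher at 120 h than at 48 h. On the relative scale 0 to 3 were called at 120 h against 0 h and 0 to 1 against 48 h. Regions called later but not at 0 h ranged from 1 to 6, and the Tfcp2l1 peak difference from -0.167 to 0.833. At 120 h the deposited heights ranged from -0.49 to 0.24 for the Tcf19 region, -0.59 to 0.15 for Klf2 and -0.65 to 0.12 for Esrrb +108963. Relative heights ranged from -0.13 to 0.16 for Sox2 +907, -0.01 to 0.50 for Esrrb +108963 and -0.31 to 0.0 for Tfcp2l1 at 18 h, from -0.23 to 0.07 for the Tcf19 region at 48 h, and from -0.40 to 0.01 for Tfcp2l1 at 120 h. An arm left with 1 library was assumed to vary like the others.

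After each library was centred on its median, deviations of same-numbered libraries correlated between -0.224 and 0.248. Centring removes shifts of whole libraries, so this check could not see a pairing through such shifts. The samples share a number and were not taken as pairs. With a replicate block, 7, 8 and 2 regions were called in deposited height at 18, 48 and 120 h against 0 h, as without it, and 0, 0 and 2 on the relative scale.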
